A study of Mus musculus with 10 samples.

Results

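Neurons that carried transcripts of immediate early genes made up 309 of the 7535 neuronal nuclei that passed the limits set here, and of 20503 nuclei in all. The nuclei were chosen by their UMI counts (unique molecular identifiers, each marking 1 captured transcript). A nucleus was a member when the deposited annotation called it a neuron, when it held more than 1000 genes and 5000 to 20000 UMIs, and when at least 1 UMI was counted for at least 3 of the 5 genes *Fosb*, *Egr4*, *Btg2*, *Junb* and *Npas4*. These nuclei are called IEG-positive neurons below. The 5606 neurons within the same limits that had no UMI of any of the 5 genes are called IEG-negative neurons, and 1620 neurons had UMIs of 1 or 2 of the genes.

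The nuclei came from tissue punches of the paraventricular thalamus (PVT) of C57BL/6J mice aged 12 weeks, for which the labels name no treatment, and gave 10 libraries of 10x Genomics single-nucleus RNA sequencing. The study's methods state that 4 mice were pooled per sample, so a library is a pool of animals and no single animal can be followed. Of these libraries 6 were labelled female, and the other 4 were male by the deposited metadata, since their labels name no sex. The libraries held 5119927 to 55956635 UMIs in 875 to 7213 nuclei. Punches also hold neurons of neighbouring regions such as the habenula and the mediodorsal thalamus. Of 20457 distinct cell barcodes, 46 occurred in more than 1 library.

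Immediate early genes (IEGs) are transcribed within minutes of strong synaptic input, growth factor signalling or cellular stress, without the need for new protein synthesis. Calcium and cAMP signals reach them through the kinases that phosphorylate CREB, and the Ras-ERK pathway reaches them through serum response factor. Many encode transcription factors such as the AP-1 subunits of the Fos and Jun families, the zinc-finger EGR proteins and the NR4A orphan nuclear receptors, and others encode effectors that act at the synapse or shut the signal down again. Their RNA is short-lived, so that a nucleus with several of them is commonly read as one that was recently active, although handling of the tissue can also induce them.

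The 5 genes that chose the nuclei are described first, and nothing was tested on them. *Npas4*, a transcription factor that in neurons answers mainly to calcium entry, had a UMI in 275 of the 309 members (89.0%). *Btg2*, an antiproliferative early gene, was found in 265 members, *Fosb* in 249 and *Junb* in 245, and both of the latter encode AP-1 subunits. *Egr4* was found in only 53 members (17.2%). The most common combination was *Fosb*, *Btg2*, *Junb* and *Npas4* together, in 92 members, and all 5 genes were present in 25. The summed level of the 5 genes in the members ranged from 685.7 CPM (UMIs of a gene per 1000000 UMIs) in male replicate 4 to 1175 CPM in male replicate 2 among the 6 libraries used for tests.

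The threshold of 3 genes cuts a continuous range. Exactly 3 genes were found in 174 nuclei, just inside the threshold, and exactly 2 in 332 nuclei, just outside it. *Npas4* had a UMI in 82.8% of the nuclei just inside and in 64.5% of those just outside, and *Fosb* in 68.4% and 41.0%. Their median depth was 12236 and 12792.5 UMIs. More UMIs give more chances to find a gene, and over all classes the members had a median of 12542 UMIs against 11031.5 in IEG-negative neurons.

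IEG-positive neurons were found in every library, at 0.735% to 5.76% of the neurons within the limits (mean 3.28% ± 1.98, SD, n = 10). The share was above 3% in male replicates 2, 3 and 4 and in female replicates 2, 3 and 5, and below 2% in male replicate 1 and female replicates 1, 4 and 6, so that each sex had libraries of both kinds. Male replicate 4 alone supplied 139 of the 309 members. When every nucleus was thinned at random to 5000 UMIs, 147 members remained and the mean share was 1.63% ± 1.21, with 0 of 176 neurons in male replicate 1. Counting intervals are exact binomial (Clopper-Pearson, 95%) and cover counting error only.

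**Figure D1:**
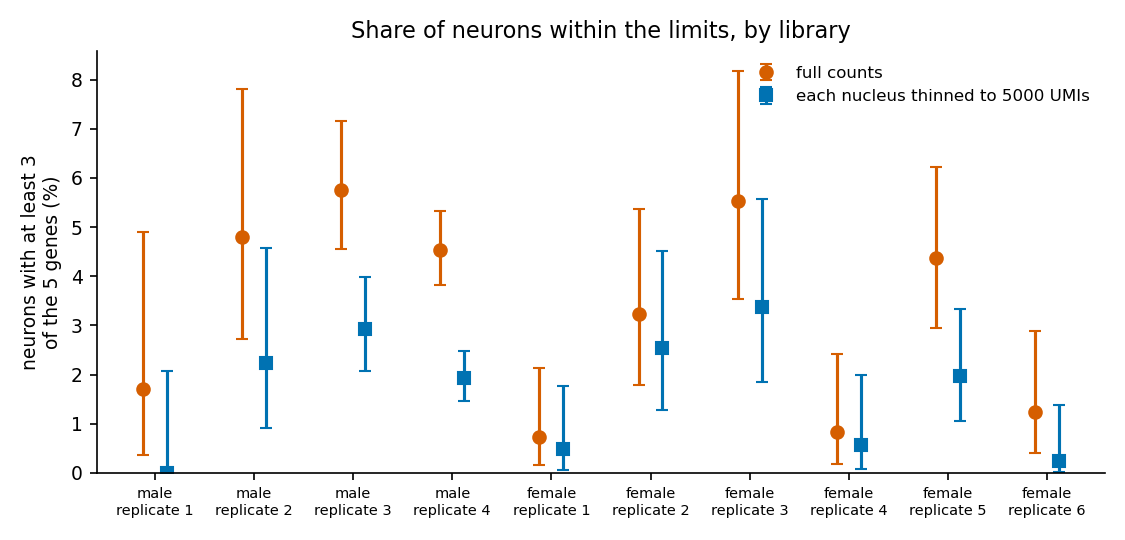
Share of neurons within the limits (%) that had UMIs of at least 3 of the 5 genes, for each of the 10 libraries, from full counts (circles) and after each nucleus was thinned to 5000 UMIs (squares). Bars are exact 95% binomial intervals, and 6 libraries lie above 3% while 4 lie below 2% with full counts.

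The label was checked against cell type markers. The neuronal markers *Rbfox3*, *Snap25*, *Syt1*, *Slc17a6*, *Slc17a7*, *Gad1*, *Gad2* and *Slc32a1* summed to 3204 CPM in the members and 3115 CPM in IEG-negative neurons. *Slc17a6*, which encodes the vesicular glutamate transporter VGLUT2 of thalamic relay neurons, stood at 489 to 780 CPM in members of the 6 tested libraries. In their IEG-negative neurons it stood at 340 to 554 CPM. *Slc17a7* was called lower in the first comparison below, at -2.38 ± 0.35 on the log2 scale and in 5 of 6 libraries. Against matched nuclei its value was -0.46 ± 0.46, and it was not called. *Snap25* was higher in 6 of 6 libraries, *Rbfox3* lower in 5 and *Syt1* lower in 4, and none of these was called. In the first comparison *Snap25* and *Slc17a6* had values of 0.29 ± 0.07 and 0.42 ± 0.08, with adjusted p of 0.00666 and 0.000317 by edgeR. They were not called because both values were under the limit of 0.5 in size that is given below. *C1ql3*, a PVT marker, rose by 0.72 ± 0.09 on the log2 scale in the test described below. Markers of other cell types were at similar levels in both classes, and their part in the results was not tested. The 8 astrocyte markers summed to 398 CPM in members and 356 CPM in IEG-negative neurons, with *Slc1a2* the most abundant at 358 and 309 CPM. The 6 oligodendrocyte markers summed to 128 and 116 CPM with *Mbp* the most abundant, and the 5 microglial markers to 122 and 138 CPM with *P2ry12* the most abundant. *Flt1* of endothelial cells and *Dcn* of fibroblasts had no UMI in any member.

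Other cell types were looked at in the same way. How much of their UMIs was free RNA was not tested, and for at least 1 gene some types had larger shares than neurons. With all nuclei thinned to 2000 UMIs, 62 of 10213 neurons (0.607%, 95% interval 0.466% to 0.778%) still had at least 3 of the 5 genes. No astrocyte of 4308 did, which allows a share of up to 0.0696% (taking 3 counts as the limit for a count of 0), and no oligodendrocyte of 1615 did, which allows up to 0.186%. Among microglia the count was 0 of 563, and among endothelial nuclei 1 of 100. At least 1 of the 5 genes was found in 8.61% of neurons, 31% of endothelial nuclei, 23.4% of microglia and 12.8% of fibroblasts, and in 5.20% of astrocytes, 3.42% of oligodendrocyte precursors, 3.02% of ependymal nuclei and 2.60% of oligodendrocytes. Without thinning the shares were 4.23% of all 10410 neurons at a median of 11157 UMIs and 0.0189% of 5302 astrocytes at a median of 3006.5 UMIs.

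The IEG-positive neurons were spread unevenly over the 8 deposited neuron clusters. Clusters 1 and 2 held 145 and 91 of the 309 members, and 5.79% and 6.94% of their neurons were members. In cluster 3, where *Adarb2* of the mediodorsal thalamus was highest, 5 of 756 neurons (0.661%) were members. In cluster 6, where the habenular marker *Tac2* stood at 847 CPM in IEG-negative neurons of the 6 tested libraries and at no more than 4.01 CPM in any other cluster, 2 of 551 (0.363%) were. Cluster 6 held 7.56% of IEG-negative neurons and 0.647% of members, and this difference in make-up is carried by the comparisons below, other than those with matched nuclei or within 1 cluster.

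**Figure D2:**
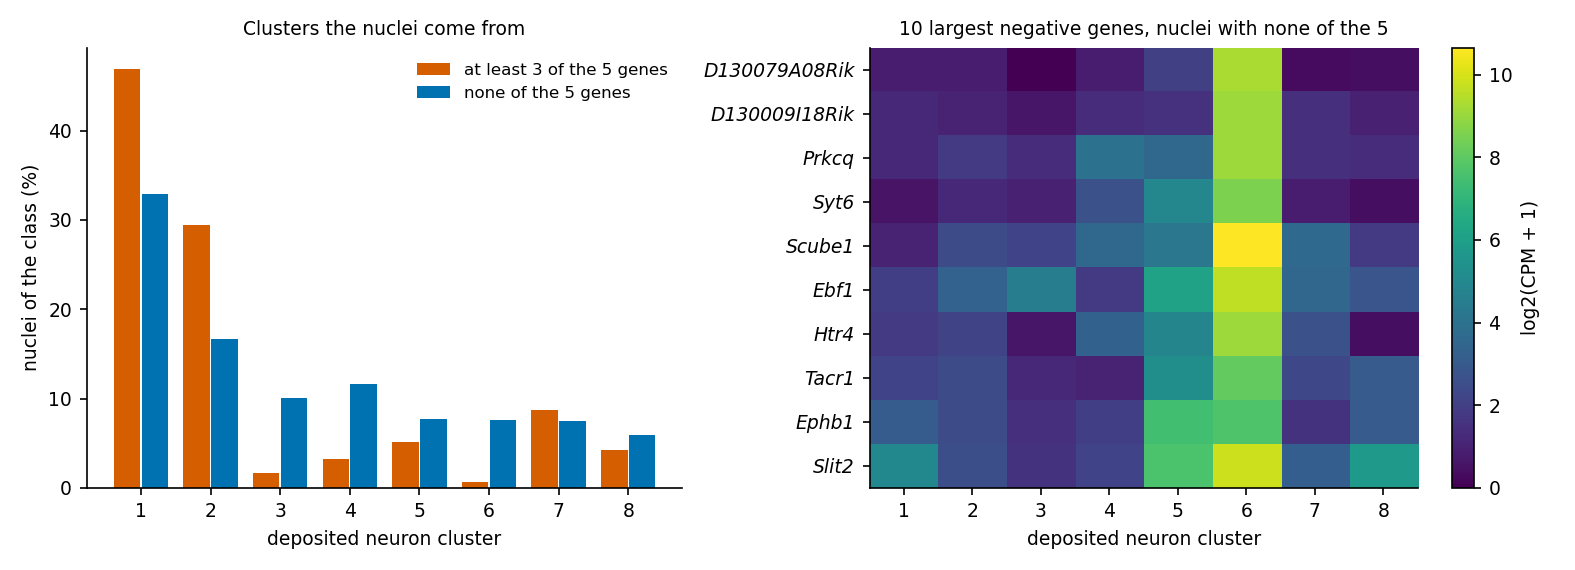
Left, percentage of IEG-positive (orange) and IEG-negative (blue) neurons that belonged to each deposited neuron cluster, with 46.9% and 32.9% in cluster 1 and 0.647% and 7.56% in cluster 6. Right, level of the 10 genes with the largest negative fold changes in IEG-negative neurons of each cluster, as log2(CPM + 1), with every gene highest in cluster 6.

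To find which other genes differed, UMIs were summed over the IEG-positive and over the IEG-negative neurons of each library, and the 2 sums of a library were compared with each other. The 4 libraries with fewer than 10 members were left out, which left 295 members and 4495 IEG-negative neurons in 3 male and 3 female libraries. The sums of members held 114928 to 1790843 UMIs. The 5 genes of the rule were left out of the tested genes. A gene was called when its adjusted p was under 0.05 by edgeR's quasi-likelihood test with Benjamini-Hochberg adjustment over 12303 genes and its log2 fold change was over 0.5 in size.

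By this rule 465 genes were called (3.78%), of which 273 were higher in IEG-positive neurons (2.22% of those tested) and 192 were lower (1.56%). Other IEGs led the rises, with some genes that restrain the signal among them, and 11 genes rose by more than 3 on the log2 scale. Most of the lower genes had their highest level in cluster 6, and 21 of the 192 were called again against nuclei of the same cluster. Over all genes tested, the 6 sums of 1 class lay wholly above those of the other for 117 higher (0.951%) and 81 lower genes (0.658%). DESeq2 called 212 genes higher and 78 lower.

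*Fos*, the founding AP-1 subunit, showed the largest rise. It lies on chromosome 12 (GRCm38, 85473890 to 85477273, plus strand). Its level in the 6 sums of IEG-positive neurons was 214 CPM at the lowest, 284 CPM at the median and 432 CPM at the highest, against 4.58, 7.57 and 11.5 CPM in IEG-negative neurons. Every sum of members was far above every sum of the others. The log2 fold change was 5.07 ± 0.14 (SE), or 33.6-fold, with an adjusted p of 3.35e-25 by edgeR's quasi-likelihood test. After thinning to 5000 UMIs, *Fos* had a UMI in 62.1% of members, 17.1% of neurons with 1 or 2 of the genes and 3.59% of IEG-negative neurons. At 2000 UMIs these shares were 36.9%, 8.77% and 1.53%, and 2.23% of oligodendrocytes had a *Fos* UMI, so that the share in IEG-negative neurons was below that in a glial type.

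The other AP-1 genes moved the same way. *Fosl2*, which encodes FRA-2, ranged from 25.2 to 94.3 CPM (median 46.3) in members and from 0.763 to 3.12 CPM (median 1.84) in IEG-negative neurons. *Jun*, the partner of the Fos proteins, ranged from 17.2 to 53.2 CPM (median 39.4) against 3.38 to 6.86 CPM (median 5.90). The groups did not overlap for either gene, and the log2 fold changes were 4.29 ± 0.23 and 2.78 ± 0.20. *Jund*, a member of the family that is present without stimulation, rose by 1.34 ± 0.13, from a median of 32.7 to 90.1 CPM, and its ranges overlapped. No source used here states whether counting used strand, and *Jun*, *Dusp1* and *Tiparp* each overlap a gene on the other strand. So does *Junb*, a gene of the rule, which overlaps *Prdx2*.

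*Egr1* and the NR4A receptors followed. *Egr1*, a zinc-finger factor that reads the ERK signal, stood at 77.2 to 148 CPM (median 102) in members and 6.55 to 15.5 CPM (median 8.51) in IEG-negative neurons, a log2 fold change of 3.59 ± 0.15. *Nr4a3* stood at 132 to 276 CPM (median 176) against 7.24 to 20.3 CPM (median 14.9), a change of 3.77 ± 0.13. *Nr4a1* rose by less, by 1.59 ± 0.18, from a median of 14.96 to 43.2 CPM. For none of the 3 genes did the groups overlap. *Nr4a2* was not called, at a log2 fold change of 0.34 ± 0.33 and an adjusted p of 0.735 by edgeR, and it was higher in members in 2 of 6 libraries. *Nr4a2* was itself a gene of cluster 6, at 237 CPM there and at most 7.72 CPM in the other clusters of IEG-negative neurons. Against matched nuclei of the same cluster *Nr4a2* was called by edgeR, at 2.37 ± 0.37 with an adjusted p of 1.03e-06. Its level in members was 28.0 to 69.8 CPM in male replicate 3 and female replicates 3 and 5. It was 0 to 5.01 CPM in the other tested libraries. Over all 10 libraries and all clusters, 8.74% of members and 7.80% of IEG-negative neurons had a UMI of it.

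Of 27 other IEG transcription factors listed, 17 passed the filter on low counts. Of these, 14 were called higher and none lower, where the shares over all genes tested were 2.22% and 1.56%. The median log2 fold change was 1.59 over the 17, against -0.01 over all genes tested. The filter keeps a sparse gene that is high in 1 class, so that such counts over the tested members of a list are descriptions only. *Fosl2*, *Ier2* and *Cebpb*, for example, were at no more than 3.12, 3.47 and 4.96 CPM in any IEG-negative sum. *Ier2*, a small nuclear protein, rose by 3.26 ± 0.28 and *Tiparp*, an ADP-ribosyltransferase induced by several stimuli, by 2.52 ± 0.11. The repressors *Bhlhe40* and *Nfil3* and the cAMP-responsive *Crem* rose by 1.74 ± 0.17, 1.52 ± 0.26 and 1.44 ± 0.16. *Klf6* and *Cebpb* passed at 0.67 ± 0.15 and 1.27 ± 0.39. Against matched nuclei *Cebpb* was not called, with an adjusted p of 0.0658 by edgeR, though its value there was 1.52 ± 0.48. Among those that did not pass the filter, *Egr3* had 27 UMIs in the members of the 6 tested libraries (7.25 CPM) and 26 in their IEG-negative neurons (0.491 CPM), and *Klf4* had 20 and 40.

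**Figure D3:**
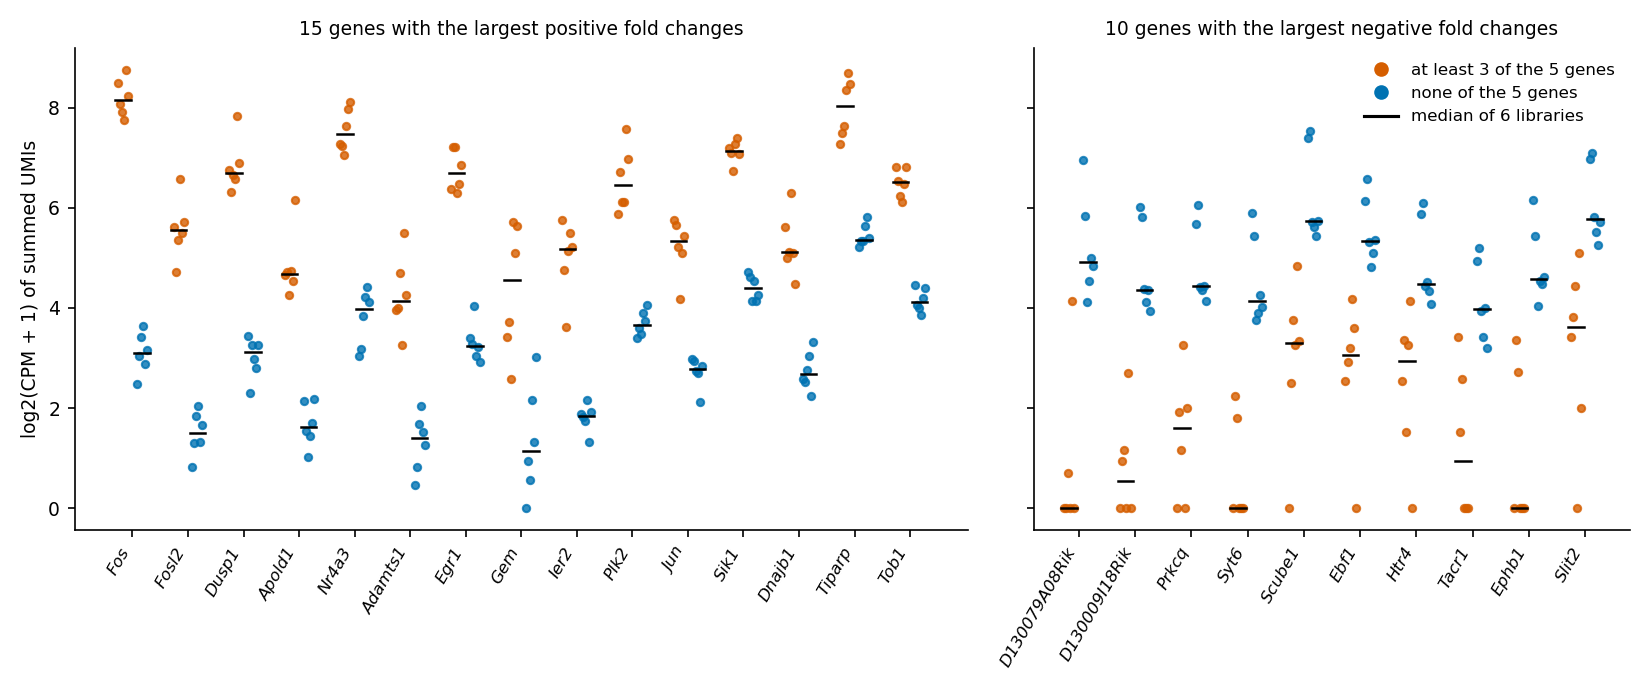
Level of 25 genes, as log2(CPM + 1) of the UMIs summed per library, in IEG-positive (orange) and IEG-negative (blue) neurons; each point is 1 of 6 libraries and the black line is their median. Points of the 2 classes do not overlap for 14 of the 15 genes on the left and for 7 of the 10 on the right.

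Some genes that restrain the signal were among the largest rises. *Dusp1*, a phosphatase that switches off MAP kinases, ranged from 78.4 to 227 CPM (median 103) in members and from 3.91 to 9.91 CPM (median 7.74) in IEG-negative neurons, a log2 fold change of 3.91 ± 0.17. *Sik1*, a kinase that holds back the CREB coactivators, stood at 106 to 166 CPM (median 140) against 16.5 to 25.2 CPM (median 20.2) and rose by 2.70 ± 0.12. Neither pair of ranges overlapped. Of 15 MAP kinase phosphatases and Ras-ERK inhibitors listed, 9 were tested and 4 were called higher (2.22% over all genes), with a median of 0.29 (-0.01 over all genes). Besides *Dusp1* these were *Dusp6* (1.46 ± 0.32), *Dusp14* (1.23 ± 0.17) and *Errfi1* (0.85 ± 0.19). *Spred1*, *Spred2*, *Rasa1*, *Dusp8* and *Dusp16* lay between -0.04 and 0.29 and were not called. *Tob1*, of the same antiproliferative family as *Btg2*, rose by 2.42 ± 0.13, from a median of 16.4 to 90.0 CPM.

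Of 30 effector genes of neuronal activity listed, 19 were tested, 13 were called higher and none lower, with a median log2 fold change of 0.93. Over all genes 2.22% were higher and 1.56% lower, and the median was -0.01. *Plk2*, a kinase that trims synapses after strong activity, stood at 58.0 to 188 CPM (median 86.6) in members and 9.53 to 15.7 CPM (median 11.7) in IEG-negative neurons, a change of 3.02 ± 0.15. *Gem*, a small GTP-binding protein that inhibits calcium channels, rose by 3.42 ± 0.33, but it was sparse, with 51 UMIs in members, and its ranges overlapped at 5.01 and 7.14 CPM. *Homer1*, a scaffold of the excitatory synapse whose short form is an IEG product, rose from a median of 55.5 to 199 CPM (1.91 ± 0.15), and this count over the whole gene does not separate the forms. *Bdnf*, a neurotrophin, rose from 39.9 to 110 CPM (1.39 ± 0.13).

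The same list holds peptide and secretory genes. *Pcsk1*, a prohormone convertase, changed by 1.84 ± 0.23, *Scg2*, a granin, by 1.03 ± 0.10, and *Vgf*, a neuropeptide precursor, by 0.75 ± 0.15. *Pcsk1* and *Vgf* were higher in 5 of 6 libraries and *Scg2* in all 6. *Rheb*, a GTPase upstream of mTOR, and *Fbxo33* rose by 0.93 ± 0.10 and 0.83 ± 0.15. *Inhba* and *Nedd9* had values of -0.04 and -0.04. *Arc*, which encodes a synaptic protein and is a standard marker of active neurons, did not pass the filter. It had 28 UMIs in the members of the 6 tested libraries (7.52 CPM) and 52 in their IEG-negative neurons (0.982 CPM). Over all 10 libraries, 6.47% of members had a UMI of it.

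Several strongly raised genes are known as early genes in other cells too. *Apold1*, first described in vessel walls, ranged from 18.2 to 69.8 CPM (median 24.7) in members against 1.03 to 3.57 CPM (median 2.09), and *Adamts1*, a secreted protease, from 8.58 to 44.3 CPM (median 16.6) against 0.381 to 3.12 CPM (median 1.63). Their log2 fold changes were 3.86 ± 0.25 and 3.70 ± 0.29 and neither pair of ranges overlapped. *Dnajb1*, a cochaperone of HSP70, rose by 2.59 ± 0.22, from a median of 5.39 to 33.5 CPM. Of 11 heat shock and folding genes tested 2 were called higher, where the share over all genes was 2.22%, with *Hspa8* the other at 0.52 ± 0.10, and the median was 0.23. Of the NF-kB and inflammatory genes 2 of 15 were tested and neither was called, with *Nfkbiz* at 0.72 ± 0.33 and an adjusted p of 0.283 by edgeR.

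In the circadian clock 3 of 16 tested genes were called higher, where the share over all genes was 2.22%, and their median was 0.16. *Per1*, whose promoter answers to CREB, ranged from 73.9 to 177 CPM (median 91.1) in members and 19.1 to 32.3 CPM (median 24.4) in IEG-negative neurons and rose by 1.95 ± 0.13. *Ciart* rose by 1.35 ± 0.21 and *Per2* by 0.79 ± 0.24, though *Per2* was higher in only 4 of 6 libraries and was not called against matched nuclei (adjusted p = 0.0914). *Arntl* and *Clock*, the activators of the clock, had values of 0.09 ± 0.11 and -0.12 ± 0.10.

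The lists of signalling, synapse and channel genes had called shares near those of all genes tested, which were 2.22% higher and 1.56% lower. Among 27 genes of cAMP and calcium signalling to CREB, 1 was higher, the phosphodiesterase *Pde10a* at 0.54 ± 0.10, and 1 was lower, *Pde1a* at -0.63 ± 0.16, with a median of 0.03. Against matched nuclei *Pde10a* had a value of 0.46 with an adjusted p of 1.29e-05 by edgeR, under the limit of 0.5 in size, and *Pde1a* one of 0.20 with an adjusted p of 0.647. None of 18 excitatory synapse genes and none of 12 GABA-A receptor subunits was called, with medians of -0.13 and 0.20. Of 57 potassium channel genes tested, *Kcnma1* at -0.76 ± 0.11 and *Kcnip3* at -0.64 ± 0.15 were lower, and against matched nuclei their values were -0.14 and -0.32 with adjusted p of 0.371 and 0.436 by edgeR. *Kcnf1* was called higher against matched nuclei, at 1.16 ± 0.35 with an adjusted p of 0.0473, and not in the first comparison (0.94 ± 0.30, adjusted p = 0.0549).

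Of the genes outside these lists, a few imprinted genes were noticed among the higher genes after their values were seen. *Mest* stood at 150 to 299.6 CPM (median 223) in members and 43.7 to 55.7 CPM (median 53.6) in IEG-negative neurons, and *Zdbf2* at 228 to 454 CPM (median 346) against 74.4 to 92.7 CPM (median 84.8). Their log2 fold changes were 2.07 ± 0.10 and 1.90 ± 0.11, in 6 of 6 libraries. *Peg10* rose by 1.88 ± 0.27 and *Dlk1* by 1.34 ± 0.35, the latter in 4 of 6 libraries. *Meg3*, another imprinted gene and among the most abundant RNAs of these neurons, had a value of 0.08 ± 0.06 and was not called. The noncoding gene *1700016P03Rik* rose by 3.62 ± 0.15 but had UMIs only in the male sums. Of the 465 called genes, 17 had no UMI in any female sum and 5 none in any male sum, against 444 and 201 of all genes tested.

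Promoters of the raised genes were read for the cAMP response element (CRE), the letters bound by CREB. The RefSeq windows of GRCm38 hold 250 bases before each start site, and both the palindrome TGACGTCA and its shorter part TGACG (or CGTCA on the other strand) were searched, where each full match also holds the short one. A window was given for 16 of the 20 genes made up of the rule's 5 and the 15 with the largest rise, and *Egr1*, *Gem*, *Ier2* and *Sik1* had none. The full letters were in 3 of their 17 windows (17.6%), against 1.55% of 32851 promoters, and the short letters in 13 (76.5%), against 17.8%. Without the rule's 5 genes, whose level chose the nuclei, they were in 2 (16.7%) and 8 (66.7%) of 12 windows. Of the 10 genes with the largest fall, 9 had a window (all but *Htr4*), and in their 12 windows the counts were 0 and 2. The 3 windows with the full letters and the match of *Fos* nearest its start are shown with the matched letters in capitals, *Btg2* as a gene of the rule and the others as genes that rose together.
Btg2 (chr1:134079294-134079341, minus strand): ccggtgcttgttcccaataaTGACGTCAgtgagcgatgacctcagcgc
Dusp1 (chr17:26508588-26508635, minus strand): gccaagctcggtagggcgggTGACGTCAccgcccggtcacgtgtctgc
Plk2 (chr13:110394962-110395009, plus strand): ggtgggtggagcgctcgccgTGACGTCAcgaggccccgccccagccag
Fos (chr12:85473804-85473848, plus strand): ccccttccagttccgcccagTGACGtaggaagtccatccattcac

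The first matched base lies 166 bases before the start of *Btg2*, 143 before that of *Dusp1*, 62 before that of *Plk2* and 66 before that of *Fos*. A match describes the letters only and no binding was measured here.

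The largest falls were in genes that mark cluster 6. *D130079A08Rik* and *D130009I18Rik*, noncoding genes that lie near each other on chromosome 14, had 4 UMIs each in the members of the 6 tested libraries against 1761 and 1556 in the IEG-negative neurons. Their levels in the IEG-negative sums were 16.4 to 124 CPM and 14.3 to 63.3 CPM, and 4 and 3 of the 6 sums of members held no UMI of them. *Prkcq*, which encodes protein kinase C theta, fell by 4.13 on the log2 scale, from a median of 20.6 to 2.03 CPM. *Scube1*, a secreted protein, ranged from 42.1 to 185 CPM in IEG-negative sums and from 0 to 27.7 CPM in those of members, and the transcription factor *Ebf1* from 27.4 to 93.9 CPM and 0 to 17.2 CPM. The receptors *Htr4* for serotonin and *Tacr1* for substance P, the synaptotagmin *Syt6* and the guidance genes *Ephb1* and *Slit2* completed the 10 genes with the largest falls, at -3.44 to -2.34.

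All 10 of these genes were highest in cluster 6 among IEG-negative neurons, as with *Scube1* at 1610 CPM there and at most 17.9 CPM in any other cluster. Of all 192 lower genes, 121 (63.0%) were highest in cluster 6 and 32 in cluster 3, against 26.7% and 10.9% of all genes tested. Cluster 6 held 19.7% of the IEG-negative neurons of male replicate 2 and 13.1% of those of male replicate 3, against 3.21% to 5.25% in the other 4 libraries, and these were also the 2 libraries in which the IEG-negative sums were highest for all 10 genes. Without male replicate 3 the number of lower genes was 113. The cholinergic genes *Chat* and *Slc5a7* and the tachykinin gene *Tac2*, all known from the medial habenula, fell by 3.56, 2.13 and 2.93. *Chat* and *Slc5a7* were lower in 6 of 6 libraries and *Tac2* in 5, with 49.8 against 31.6 CPM in female replicate 3.

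To hold the cluster, library and depth the same, each member was set against the 3 IEG-negative neurons of its own library and cluster that were nearest to it in UMI count. Members and matched nuclei then had medians of 12542 and 12445 UMIs. On the same 12303 genes, 224 were called higher (1.82%) and 27 lower (0.219%), together 2.04%. The members are the same as in the first comparison, and the matched nuclei are part of its IEG-negative neurons. The 2 sets of values are therefore not independent. All 273 genes of the first comparison kept a positive sign and 205 were called again, with a median log2 fold change of 0.79 after 0.83. Of the 192 lower genes, 165 kept a negative sign and 21 were called again, with a median of -0.39 after -1.10. All 15 of the largest rises were called, at 2.29 to 5.03. Of the 10 largest falls 4 were called, *D130079A08Rik* at -2.74 ± 0.60, *D130009I18Rik* at -2.53 ± 0.60, *Ebf1* at -1.25 ± 0.32 and *Slit2* at -0.92 ± 0.23. The first 2 of these had 4 UMIs each in members. The genes were those of the first comparison, whose filter keeps a sparse gene that is high in 1 class. With the filter of the matched fit itself, 11 of the rises and 1 of the falls were tested, and all of these were called. *Chat*, *Slc5a7* and *Tac2* had values of -0.61, -0.20 and -0.38, with adjusted p of 0.888, 0.954 and 0.803 by edgeR.

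**Figure D4:**
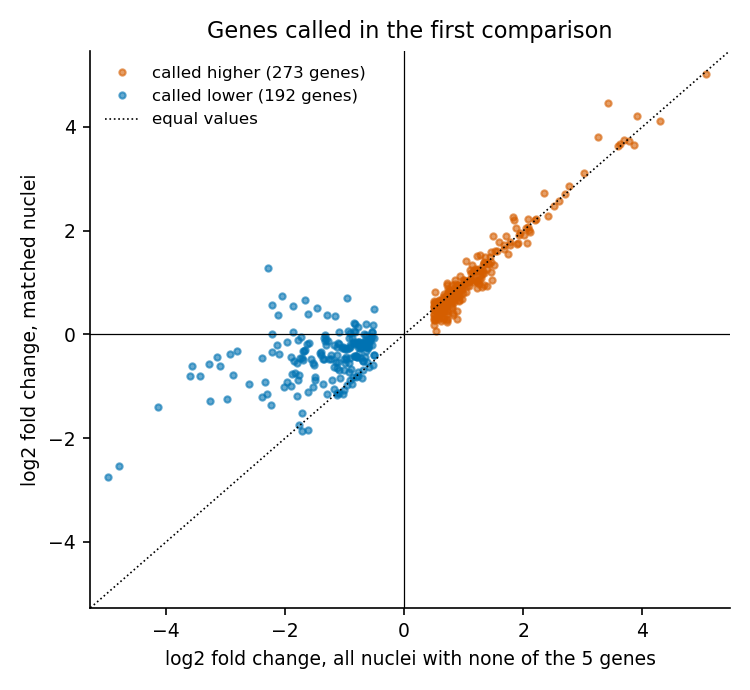
Log2 fold change of the 465 called genes against all IEG-negative neurons (horizontal) and against nuclei matched on library, cluster and UMI count (vertical). The 273 higher genes (orange) lie along the dotted line of equal values, and the 192 lower genes (blue) lie mostly between that line and 0, with a median of -0.39 on the vertical axis.

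Within cluster 1 alone, which held the most members, 4 libraries had at least 10 members (male replicates 3 and 4 with 29 and 69, female replicates 3 and 5 with 12 each). There 163 genes were higher (1.32%) and 19 lower (0.154%) on the same genes, together 1.48%. Of the 15 largest rises 14 were called there, and *Adamts1* stood at 2.89 ± 0.86 with an adjusted p of 0.0545 by edgeR. Of the 10 largest falls *Slit2* was called there, at -1.42 ± 0.33, and *Syt6* and *Tacr1* had positive values of 1.74 ± 1.28 and 0.34 ± 0.69. With the filter of this fit itself, 11 of the rises and 1 of the falls were tested, and all of these were called. The nuclei are part of those of the first comparison, so that its values are not independent of these. *Fos* was higher in members of every cluster when nuclei were pooled over libraries, from 105 against 9.40 CPM in cluster 3, with 5 members, to 323 against 2.63 CPM in cluster 6, with 2 members. In cluster 2 its level was 296 CPM in 91 members and 7.78 CPM in 936 IEG-negative neurons.

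The 14 members of the 4 libraries that were left out of the test gave 147 UMIs of the 15 genes with the largest rise. Pooled over these libraries, 13 of the 15 were higher in the members than in the IEG-negative neurons, with *Fos* at 192 against 6.95 CPM and *Nr4a3* at 164 against 14.98 CPM. *Jun* and *Adamts1* had no UMI in these 14 nuclei. With so few nuclei no test was made.

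Neurons with 1 or 2 of the 5 genes were compared with the IEG-negative neurons in all 10 libraries. The IEG-negative sums are shared with the first comparison, so that the 2 sets of values are not independent. Here 26 genes were higher (0.214% of 12163 tested) and 7 lower (0.0576%), and against matched nuclei 25 (0.206%) and 4 (0.0329%). *Fos* ranged from 16.9 to 69.5 CPM (median 40.3) in these neurons and from 2.72 to 11.5 CPM (median 7.61) in the IEG-negative ones, and rose by 2.498 ± 0.107 in 10 of 10 libraries, where the value for IEG-positive neurons was 5.07. *Egr1* rose by 1.95 ± 0.12, *Nr4a3* by 1.67 ± 0.13, *Dusp1* by 1.66 ± 0.18 and *Plk2* by 1.00 ± 0.10, against 3.59, 3.77, 3.91 and 3.02. *Dnajb1*, at 0.23 ± 0.18 with an adjusted p of 0.817 by edgeR, was not called here. None of the 10 genes with the largest falls was called here.

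Pooled over libraries, the level of *Fos* was 8.09 CPM in nuclei with none of the 5 genes, 29.3 CPM with 1, 108 CPM with 2, 216 CPM with 3, 288 CPM with 4 and 323 CPM with all 5. That of *Homer1* was 62.0, 68.7, 117, 147, 201 and 458 CPM. *Bdnf* stood at 38.9, 54.8 and 87.8 CPM with 0, 1 and 2 genes and at 84.0, 105 and 85.6 CPM with 3, 4 and 5. These pooled values weight libraries by their nuclei, and only 25 nuclei had all 5 genes, so that they are a description with no test. In female replicate 4, 11 nuclei with 2 of the genes held 62 UMIs of *Homer1* (671 CPM), where the other libraries had 51.0 to 177 CPM.

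**Figure D5:**
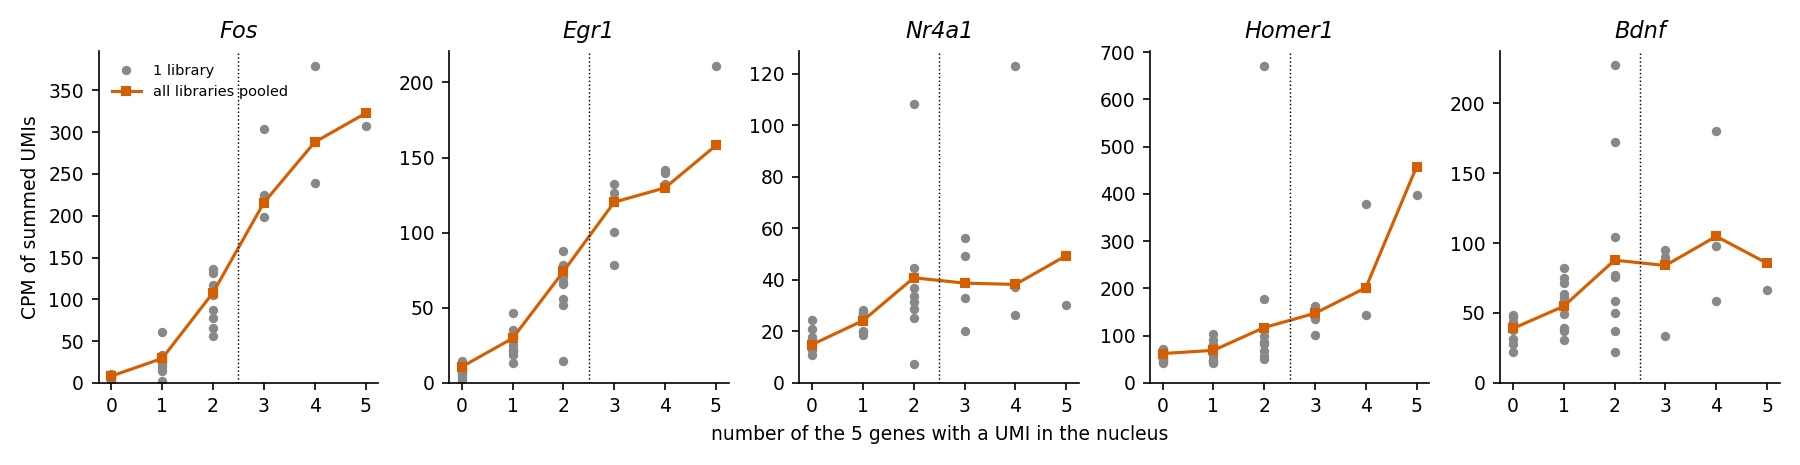
Level of 5 genes that the rule did not use, in CPM of summed UMIs, by the number of the rule's genes with a UMI in the nucleus; grey points are single libraries with at least 10 such nuclei, orange squares pool all libraries, and the dotted line marks the threshold between 2 and 3. Fos rises from 8.09 CPM at 0 to 323 CPM at 5 genes, and the pooled level of Bdnf is 84.0 to 105 CPM from 3 genes on.

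The difference between the classes was also compared between female and male libraries. By edgeR's quasi-likelihood test of the interaction, 8 of 12303 genes (0.065%) differed at an adjusted p under 0.05 and a size over 0.5, 5 with a more positive fold change in female libraries (0.0406%) and 3 with a more negative one (0.0244%), namely *Fign*, *Nr4a2*, *Nrxn3*, *Erbb4*, *Gm2516*, *Nwd2*, *Hs3st4* and *Stox2*. Of these *Nr4a2* is an IEG, with a log2 fold change of 2.16 in female and -0.43 in male libraries. Against matched nuclei none of the 12303 genes was called, with 568 at an unadjusted p under 0.05, after 677 in the first fit. The female minus male difference of *Fos* was 0.22 ± 0.29 and that of *Egr1* 0.23 ± 0.33. Sex, depth and processing cannot be told apart in these libraries. The median depth of neurons within the limits was 12009 to 15599 UMIs in male and 7402.5 to 9883 UMIs in female libraries. The deposited counts held 0 UMIs of mitochondrial genes in male and 562659 in female libraries, and only male nuclei carried a doublet call.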

How the data were processed

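Nuclei were prepared from fresh PVT punches by detergent lysis and a sucrose gradient, and 3' libraries were sequenced by the authors on the 10x Genomics platform. The authors deposited whole UMI counts per gene and nucleus, with no normalization. The submitters' notes name Cell Ranger 6.1.1 and the mouse build mm10, while the study's methods name an earlier version. The methods count only the first 4 libraries, so that the pooling of mice is stated for those and taken for the female ones. The deposited metadata gave library, sex and cluster, 20 other columns were not used, and the authors' column of percent of mitochondrial UMIs served as an alternative filter. All male nuclei carried the call of a doublet caller (all singlets) and female nuclei none, and no caller was run here.

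UMI counts were summed per library and class and tested with edgeR 4.0.16 (TMM, filterByExpr, quasi-likelihood F test) with library as a term, since both sums of a library come from 1 suspension. The deviations of the 2 sums correlated at 0.469 to 0.841 within libraries, against at most 0.455 to 0.745 with another library. CPM of the sums of 1 library used TMM sizes, and values pooled over libraries used plain totals. The alternatives included DESeq2 1.42.0. On simulated counts the fit was tested with known fold changes. The text names the 5 genes of the rule, the 15 largest rises and 10 largest falls among called genes with the same direction in all 6 libraries and a mean of at least 10 CPM, the 5 smallest p and members of the lists. Members and lists were chosen with earlier results of these data known. Gene locations are from GENCODE vM21 and promoters from RefSeq (GRCm38.p6). Some marker results are not reported here.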

Additional observations from a re-analysis of the deposited data

Results flagged for a closer look

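Among 52 groups of library values looked at for a sample apart from the rest (Dixon's test, which chance passes in about 1 of 20 groups), 7 were found. *Dusp1* reached 227 CPM in the members of female replicate 3, where the median of the others was 99.5 CPM. *Apold1* reached 69.8 CPM in the members of female replicate 5, against 24.2 CPM. *Egr1* stood at 15.5 CPM in the IEG-negative neurons of male replicate 4, against 8.27 CPM. *D130079A08Rik* reached 16.6 CPM and *D130009I18Rik* 5.54 CPM in the members of female replicate 3, where the median of the others was 0 for both; the latter value is 1 UMI. *D130079A08Rik* was at 124 CPM in the IEG-negative neurons of male replicate 2, against 27.8 CPM. *Prkcq* was at 8.58 CPM in the members of female replicate 2, against 1.25 CPM, and this value too is 1 UMI. Among the 23 members of female replicate 3, 1 nucleus belonged to cluster 6.

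The log2 fold change differed between female and male libraries for 8 genes. The female minus male difference was 2.65 ± 0.52 for *Nr4a2*, 2.52 ± 0.51 for *Nwd2*, 1.73 ± 0.37 for *Hs3st4*, 1.46 ± 0.29 for *Erbb4*, 1.10 ± 0.22 for *Gm2516*, -0.88 ± 0.17 for *Nrxn3*, -0.89 ± 0.19 for *Stox2* and -1.82 ± 0.29 for *Fign*. Against matched nuclei the same differences were 0.70, 0.37, 0.58, 0.48, 0.86, -0.28, -0.23 and -1.10, and none was called. *Nwd2* stood at 8007 CPM in cluster 6 and at no more than 99.4 CPM elsewhere, and *Fign* and *Nrxn3* were highest in cluster 3.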

How the results depend on the processing

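Between IEG-positive and IEG-negative neurons 465 genes were called, and each alternative below gives a new total. The number called was 290 with DESeq2 and 240 in female libraries alone. It was 194 against matched nuclei (8113 genes tested) and 152 within cluster 1 (9511 tested). With at least 2 of the 5 genes as the rule, which also brought female replicates 1, 4 and 6 into the fit, it was 252. On the genes of the first fit, settings chosen after seeing the data, it was 251 against matched nuclei and 182 within cluster 1. With no replicate block, that is without pairing the 2 sums of a library, it was 92 (77 higher, 15 lower). Leaving out 1 library gave 341 to 437. For neurons with 1 or 2 of the genes, 33 genes were called; no filter on low counts gave 57, no replicate block 10, and leaving out 1 library 27 to 42. The 8 genes whose fold change differed between female and male libraries became 19 with no filter and 0 against matched nuclei. The mean share of 3.28% became 7.16% with at least 2 genes as the rule, 1.53% with at least 4, and 3.00% to 3.56% without 1 library. Without a filter on low counts, 241 genes were higher and 348 lower, so that lower genes outnumbered higher ones. Of the 25 named genes *Syt6* (1.74) and *Tacr1* (0.34) changed sign within cluster 1, on the genes of the first fit; no other named gene changed sign in any setting. With no replicate block *Gem*, *Htr4*, *Tacr1*, *Ephb1* and *Slit2* were not called, though their log2 fold changes stayed about as large. They were 3.41, -2.55, -2.56, -2.81 and -2.38, after 3.42, -2.82, -2.60, -2.39 and -2.34. Of the 10 largest falls, 4 were not called in female libraries alone and 3 were not called with at least 2 genes. *Arc*, *Egr3* and other sparse early genes did not pass the filter on low counts.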
